A study of Mus musculus with 8 samples.

Results

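The growth hormone, STAT5 and IGF1 axis of the liver was followed here as 10 genes, chosen by name with earlier results of these data known. Their transcripts were read from the deposited transcript counts and summed per gene. The genes are the receptor Ghr, its kinase Jak2, the transcription factors Stat5a and Stat5b and the feedback inhibitors Socs2 and Cish. The others are the secreted products Igf1 and Igfals and the repressors Bcl6 and Cux2. The 10 genes were listed among 35975 genes in all, and their 70 transcripts among 116728 transcripts matched to a gene. Every one of the 10 genes had at least 10 estimated counts in every library and was tested, together with 29 of the 70 transcripts, while 5 of the transcripts were listed at 0 in all libraries.

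Liver RNA came from C57BL/6 mice (C57BL/6J by the study's methods) that had a catheter in the portal vein and an osmotic pump. The pump ran for 2 weeks and delivered normal saline to the 4 control mice (Normal Saline) and 4-hydroxyphenylacetic acid, a metabolite made by gut microbes, to the other 4 mice (4-HPAA). The mice of both groups had the same surgery, were kept on standard chow and were housed singly after surgery. By the study's methods they were 8 to 10 weeks old when purchased, and their age when the liver was taken is not stated there. The sex of the sequenced mice is not given in the sources used here. Each library is 1 mouse, and the total estimated count per library lay between 29559978 and 30673398.

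Growth hormone from the pituitary binds its receptor on hepatocytes, which activates the kinase JAK2 and, through it, STAT5. Active STAT5 enters the nucleus and induces Igf1, Igfals and the inhibitors Socs2 and Cish, and it represses Bcl6, whose protein can occupy the same DNA sites as a repressor. The hormone is secreted in pulses in male mice and more evenly in females. STAT5 activity in male liver therefore comes and goes within hours, whereas Cux2 and several cytochromes P450 differ between the sexes.

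Sequences of 2 kinds are shown, to picture the genes and transcripts described below. The first are 1 start region each of Cish and Bcl6, the pair of axis genes with the strongest correlation of levels over the mice. Each runs from 250 bases before to 50 bases after a start site that RefSeq gives in GRCm38.p6. The capitals mark TTCNNNGAA, the letters of the core STAT motif, which reads the same way on both strands, so that a match counts once. The Cish window lies on the plus strand at chr9:107296409-107296708 and held 2 matches, at bases 1 and 12 after the start. The Bcl6 window lies on the minus strand at chr16:23981234-23981533 and held 3 matches, the first bases of which lie at positions -168, -122 and -88 from the start. It lies inside the gene and is the Bcl6 window with the most matches. The other Bcl6 window, at chr16:23988803-23989102, spans the annotated start of the gene and held 1 match.
Cish: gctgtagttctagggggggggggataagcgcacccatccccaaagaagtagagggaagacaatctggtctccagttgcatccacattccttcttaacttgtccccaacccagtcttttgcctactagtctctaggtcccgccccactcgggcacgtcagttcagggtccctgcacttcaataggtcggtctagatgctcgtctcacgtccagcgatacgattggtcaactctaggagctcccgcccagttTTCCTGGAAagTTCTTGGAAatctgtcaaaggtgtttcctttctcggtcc
Bcl6: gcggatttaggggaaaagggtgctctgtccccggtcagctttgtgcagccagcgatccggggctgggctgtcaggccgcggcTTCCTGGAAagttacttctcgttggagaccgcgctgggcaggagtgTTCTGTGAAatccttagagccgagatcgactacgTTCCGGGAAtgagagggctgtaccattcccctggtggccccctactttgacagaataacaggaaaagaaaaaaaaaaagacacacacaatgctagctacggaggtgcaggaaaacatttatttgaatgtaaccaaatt

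Windows were found for 9 of the 10 genes, 16 windows in all, and 5 of these held the motif. Of the 32851 windows of all genes, 8.30% held at least 1 match, 0.457% held at least 2 and 0.0335% held at least 3. The other matches of the axis were 1 in another start region of Bcl6 and 1 in each of 2 start regions of Igfals. A match describes the letters and not a bound site, and no relation between matches and levels was tested. No window was available for Socs2.

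The second kind are coding stretches, from the GENCODE M21 annotation of GRCm38, that set the transcripts of Ghr and of Igf1 apart. The short transcript Ghr-203 ends in 83 coding bases that the long transcript Ghr-201 lacks. The stretch is read from the minus strand at chr15:3327604-3327686, and its capitals mark the stop codon. It was not compared with the other short transcript, Ghr-202. The transcripts Igf1-202 and Igf1-205 begin at different first exons, read from the plus strand at chr10:87859350-87859412 and chr10:87861371-87861385, and their capitals mark the start codon.
Ghr-203: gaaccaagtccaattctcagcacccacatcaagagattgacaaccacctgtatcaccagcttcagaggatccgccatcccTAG
Igf1-202: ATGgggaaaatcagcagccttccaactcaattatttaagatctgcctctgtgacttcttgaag
Igf1-205: ATGaccgcacctgca

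The question of the comparison was whether infusion of 4-HPAA altered the RNA of this axis in the liver. No gene of the axis passed the test. Of the 12883 genes tested, 0, or 0%, had an adjusted p under 0.05 (quasi-likelihood test of edgeR, adjusted after Benjamini and Hochberg), and so had 0 of the 10 axis genes. At an unadjusted p under 0.05 the counts were 225 genes, or 1.75%, and 1 axis gene, Cux2. DESeq2 called 2 genes and 0 axis genes, and limma-voom called 0 of either. The groups were fully separated in 1.2% of all genes and in 0 of the 10. By log2 fold change 4 axis genes were higher and 6 were lower with 4-HPAA. The median absolute log2 fold change was 0.11 over the 10 genes and 0.07 over all genes tested. Levels in the following are counts scaled to library size by TMM (CPM), and fold changes are log2 values of 4-HPAA over Normal Saline from edgeR with their standard error (SE). The adjusted p of every axis gene was 1.00. Because the RNA is of whole liver, fewer cells of a type and less RNA per cell cannot be told apart.

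**Figure D1:**
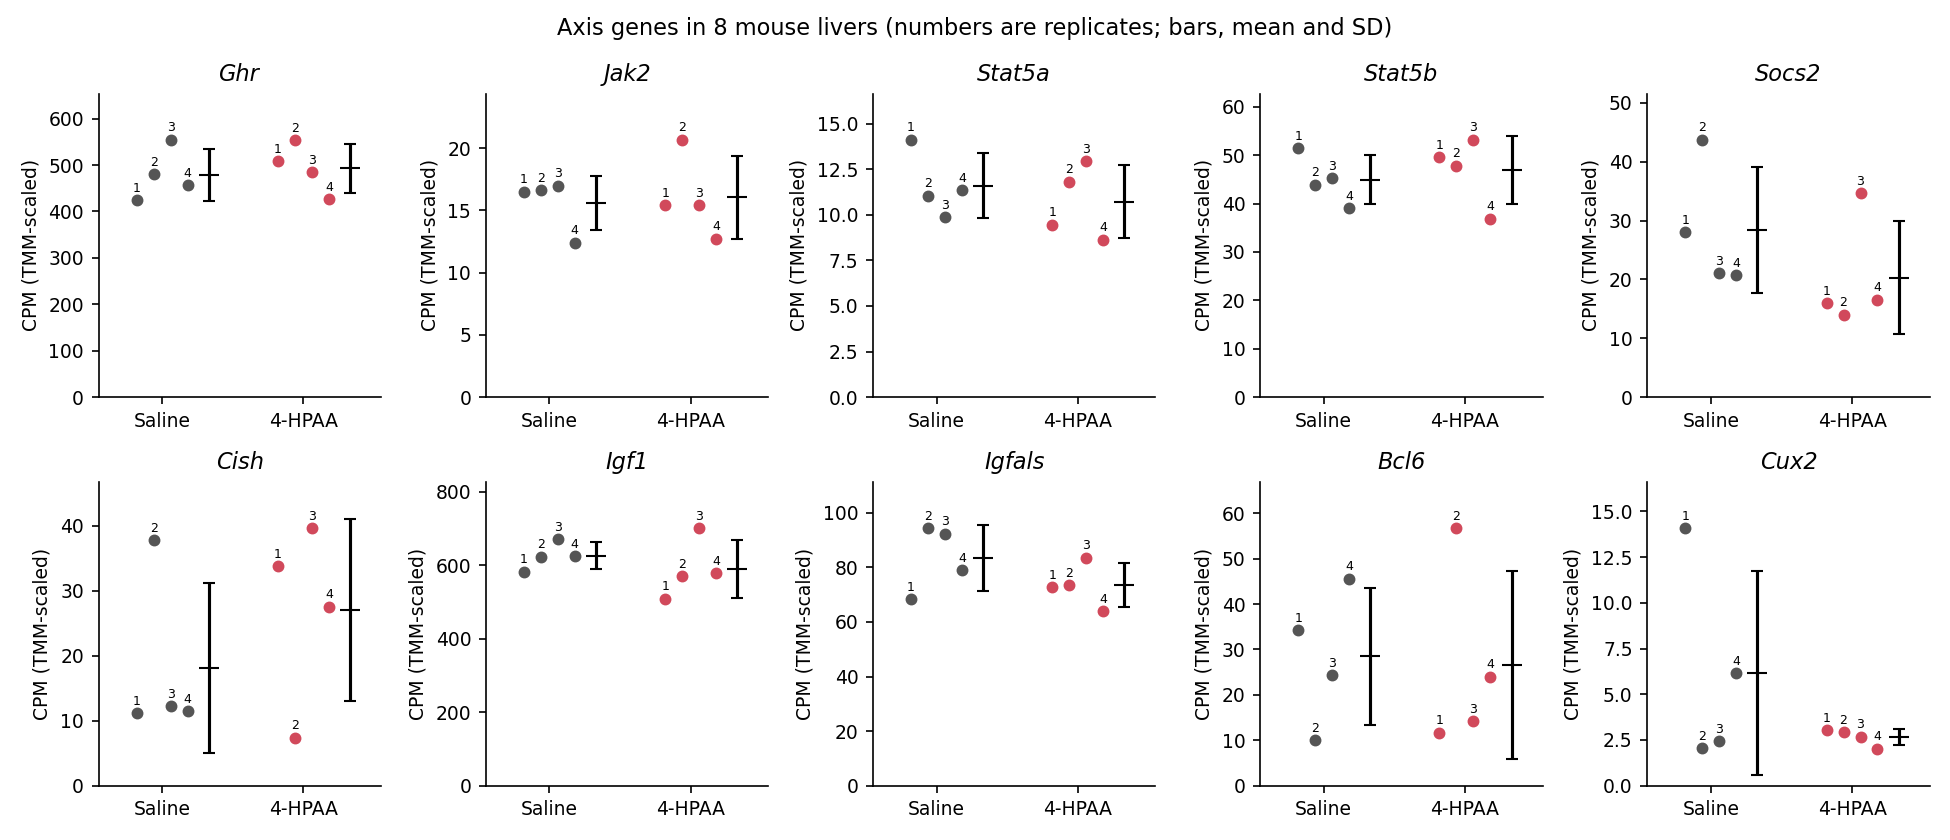
Level of each axis gene in each mouse. The y axis gives TMM-scaled CPM from 0, each point is 1 mouse with its replicate number, and the bar beside each group gives mean and SD (n = 4). Ghr and Igf1 vary little, whereas Cish, Bcl6 and Cux2 vary several-fold among mice of 1 group, and the groups overlap for every gene.

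The levels of the receptor and of its kinase overlapped between the groups. Ghr encodes the growth hormone receptor (ENSMUSG00000055737, chromosome 15, 3317760 to 3583492, minus strand) and was at 424, 480.5, 554 and 456 CPM in Normal Saline replicates 1 to 4 and at 508, 553, 484 and 426 CPM in 4-HPAA replicates 1 to 4. The ranges nearly coincided. The means were 479 ± 55.5 and 493 ± 53.0 CPM (SD over 4 mice each), and the log2 fold change was 0.04 (SE 0.11). Jak2, the kinase bound to the receptor (ENSMUSG00000024789, chromosome 19, 29251828 to 29313080), was at 16.5, 16.6, 17.0 and 12.4 CPM with Normal Saline and at 15.4, 20.7, 15.4 and 12.7 CPM with 4-HPAA. Replicate 4 was the lowest of each group for Jak2, and the log2 fold change was 0.04 (SE 0.15).

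Stat5b was the more abundant of the 2 STAT5 genes. STAT5B carries most of the growth hormone signal in male liver and lies beside Stat5a on chromosome 11. Stat5b (ENSMUSG00000020919, 100780731 to 100850724, minus strand) was at 51.5, 43.9, 45.2 and 39.1 CPM with Normal Saline and at 49.6, 47.8, 53.2 and 36.9 CPM with 4-HPAA. Its highest and its lowest mouse both belonged to the 4-HPAA group, and the log2 fold change was 0.06 (SE 0.12). Stat5a (ENSMUSG00000004043, 100859351 to 100885169, plus strand) was at 14.1, 11.05, 9.87 and 11.3 CPM with Normal Saline and at 9.46, 11.8, 12.9 and 8.64 CPM with 4-HPAA. The groups again overlapped (log2 fold change -0.11, SE 0.15). The end of Stat5a overlaps the end of Stat3 on the opposite strand, and kallisto, the counting tool, was run by the study's methods with standard parameters, which set no strand option, so reads of the shared bases cannot be told apart by strand. Per length, the log2 ratio of Stat5b to Stat5a in length-scaled units (TPM, in which the values of a library share 1 fixed sum) was 1.39 ± 0.177 in Normal Saline and 1.58 ± 0.174 in 4-HPAA mice (SD over 4 mice each), a difference of 0.18 (exact permutation test, two-sided, p = 0.229, adjusted p = 0.8286 over 29 shares and ratios).

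Neither of the 2 feedback inhibitors passed the test, with log2 fold changes of opposite sign. Socs2, which marks the receptor for degradation (ENSMUSG00000020027, chromosome 10, 95385362 to 95417180, minus strand), was at 28.0, 43.7, 21.1 and 20.8 CPM with Normal Saline and at 15.9, 14.04, 34.7 and 16.6 CPM with 4-HPAA. In 4-HPAA, 3 mice lay below all Normal Saline mice, and replicate 3 lay above 3 of the latter. The log2 fold change was -0.48 (SE 0.32), and it was -0.87 without 4-HPAA replicate 3 and -0.20 without Normal Saline replicate 2. Cish, an inhibitor that binds the activated receptor (ENSMUSG00000032578, chromosome 9, 107296026 to 107302784, plus strand), was at 11.2, 37.7, 12.2 and 11.4 CPM with Normal Saline and at 33.8, 7.37, 39.6 and 27.5 CPM with 4-HPAA. In this sum over transcripts 1 Normal Saline mouse was high and 3 were low, and with 4-HPAA 3 were high and 1 was low. No mouse lay between 12.2 and 27.5 CPM. The size of this gap depends in part on noncoding transcripts. In the coding Cish-201 the same mice were high, at 329 to 865 estimated counts against 109 to 251, with a narrower gap. Coding transcripts held 35.1% and 51.5% of Cish in 4-HPAA replicates 1 and 4. They held 76.2% in Normal Saline replicate 2, 71.9% in 4-HPAA replicate 3 and 36.2% to 70.3% in the low mice. The log2 fold change of Cish was 0.58 (SE 0.52), and it was 1.22 without Normal Saline replicate 2 and 0.34 without 4-HPAA replicate 3. Per length, the log2 ratio of Cish to Socs2 was -1.46 ± 0.454 in Normal Saline and -0.57 ± 0.765 in 4-HPAA mice (SD over 4 mice each, exact permutation test, two-sided, p = 0.143, adjusted p = 0.8286).

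The levels of both secreted products overlapped between the groups. Igf1, the growth factor that liver releases into the blood (ENSMUSG00000020053, chromosome 10, 87858265 to 87937042), was at 582, 623, 671 and 624 CPM with Normal Saline and at 509, 570.2, 699.9 and 578 CPM with 4-HPAA. The 4-HPAA range enclosed that of Normal Saline, and the log2 fold change was -0.09 (SE 0.11). Igfals encodes the acid-labile subunit that holds IGF1 in its circulating complex (ENSMUSG00000046070, chromosome 17, 24865997 to 24882010). It was at 68.4, 94.3, 92.3 and 78.9 CPM with Normal Saline and at 72.8, 73.4, 83.6 and 63.9 CPM with 4-HPAA. Normal Saline replicates 1 and 4 lay within the 4-HPAA range (log2 fold change -0.18, SE 0.12).

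Both repressors varied several-fold among the mice of the Normal Saline group. Bcl6 (ENSMUSG00000022508, chromosome 16, 23965052 to 23988852, minus strand), a zinc finger repressor that opposes STAT5, was at 34.2, 9.98, 24.4 and 45.6 CPM with Normal Saline and at 11.7, 56.7, 14.2 and 24.0 CPM with 4-HPAA. Both groups held mice near 10 and mice above 45 CPM, and the log2 fold change was -0.10 (SE 0.54). Cux2 (ENSMUSG00000042589, chromosome 5, 121856366 to 122050102, minus strand), a homeodomain repressor typical of female liver, was at 14.1, 2.06, 2.43 and 6.15 CPM with Normal Saline and at 3.04, 2.93, 2.69 and 2.03 CPM with 4-HPAA. Normal Saline replicates 1 and 4 lay above all other mice, and replicates 2 and 3 lay within the range of the 4-HPAA mice. The log2 fold change of Cux2 was -1.21 (SE 0.54, unadjusted p = 0.0499 in edgeR's quasi-likelihood test), and it was -0.41 without Normal Saline replicate 1 and -0.80 by limma-voom.

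**Figure D2:**
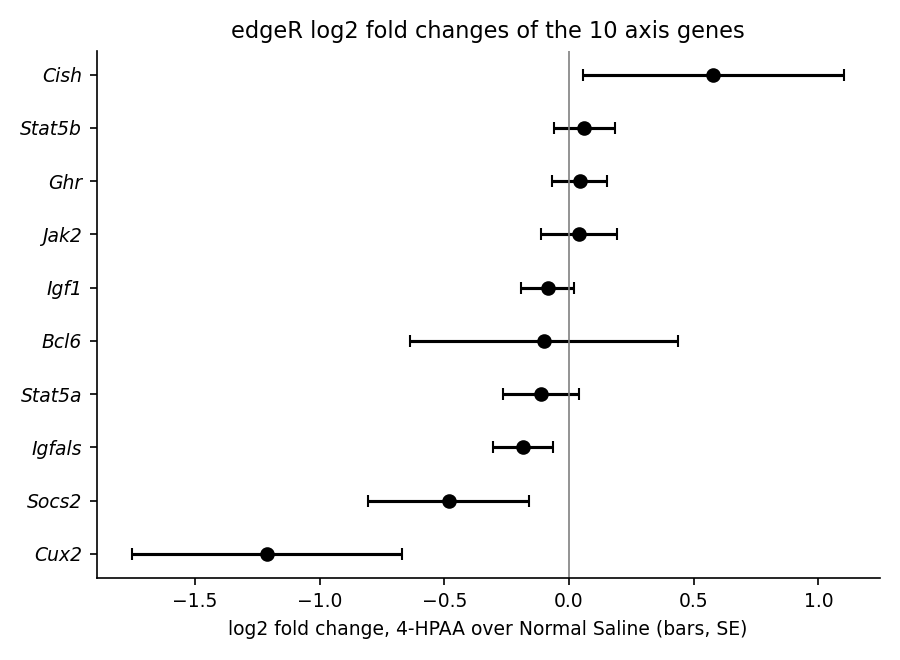
Log2 fold change of each axis gene, 4-HPAA over Normal Saline, from edgeR (n = 4 per group). Points are estimates and bars are 1 standard error. Cux2 lies farthest from 0 at -1.21, and the bars are widest for Cux2, Bcl6 and Cish.

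The spread between mice of 1 group, as the SD of log2 CPM, set these genes apart. Over all genes tested its median was 0.18. It was 0.98 for Cish, 0.98 for Bcl6, 0.92 for Cux2 and 0.55 for Socs2, the 99.4, 99.4, 99.2 and 95.02 percentiles of all genes tested. For the other 6 genes it lay below the 75th percentile, and it was 0.15 for Igf1 and 0.16 for Ghr. Between the highest and the lowest mouse Cux2 differed 6.94-fold, Bcl6 5.68-fold, Cish 5.37-fold and Socs2 3.12-fold, whereas Igf1 differed 1.38-fold and Ghr 1.31-fold.

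In mean level per length over the 8 mice, Igf1 (386 TPM) and Ghr (283 TPM) stood first and their ranges over mice met only at the edge. Igfals followed at 58.4 TPM, apart from its neighbours on both sides. Socs2 at 20.7, Stat5b at 14.9, Bcl6 at 12.8, Cish at 11.1, Stat5a at 5.34, Jak2 at 5.27 and Cux2 at 5.14 TPM came next. Each of these overlapped the next in the order. Cux2-204, a transcript of 740 bases annotated as not coding, held a mean of 52.4% of the Cux2 counts. The coding Cux2-202, of 8784 bases, held 27.6%. Scaling by length gives the short transcript more weight, so the place of Cux2 in this order is not that of its coding RNA.

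Cish and Bcl6 stood in opposite order over the mice. Bcl6 was at 56.7, 45.6 and 34.2 CPM in the 3 mice in which Cish was lowest, at 7.37, 11.4 and 11.2 CPM. It was at 9.98, 11.7 and 14.2 CPM in the 3 mice in which Cish was highest, at 37.7, 33.8 and 39.6 CPM. Both sets of mice came from both groups. Over the 8 mice the Pearson r of log2 CPM was -0.92 (exact permutation test, two-sided, p = 0.00067, adjusted p = 0.0301 over 45 pairs of axis genes), and Spearman's rho was -0.90 (exact permutation test, p = 0.00456, adjusted p = 0.205). Without 4-HPAA replicates 2 and 3, the mice farthest from the median of Cish, r was -0.89. Within the groups, of 4 mice each, r was -0.94 with Normal Saline and -0.95 with 4-HPAA. Because no mouse had a Cish level between 12.2 and 27.5 CPM, r may rest on the distance between the low and the high mice. A relation among the 4 mice on either side of that gap could not be tested with so few. These Cish levels include noncoding transcripts. The coding Cish-201 was at 329 and 397 estimated counts in 4-HPAA replicates 1 and 4. It was at 813 and 865 in Normal Saline replicate 2 and 4-HPAA replicate 3, and at 109 to 251 in the low mice. The relation of Cish-201 to Bcl6 was not tested.

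No other pair of the 45 had an adjusted p under 0.05 by r, and none had one by rho. Socs2 and Cish, both targets of STAT5, had an r of 0.46 (exact permutation test, p = 0.240, adjusted p = 0.747, n = 8), which was -0.24 without Normal Saline replicate 2 and 4-HPAA replicate 3. Those 2 mice had the 2 highest levels of both genes. Within the groups, of 4 mice each, r was 0.90 with Normal Saline and 0.61 with 4-HPAA, and over the deviations of the 8 mice from their group means it was 0.73. Igf1 and Igfals had an r of 0.65 (exact permutation test, p = 0.0817, adjusted p = 0.725) and a rho of 0.64 (exact permutation test, p = 0.0962, adjusted p = 0.841), and r was 0.83 without 4-HPAA replicates 1 and 3. Stat5a and Stat5b had an r of 0.63, and Bcl6 and Cux2 one of 0.47 (exact permutation test, adjusted p = 0.725 and 0.747, n = 8). Ghr and Igf1 had an r of 0.09 (exact permutation test, p = 0.831, adjusted p = 0.977, n = 8).

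**Figure D3:**
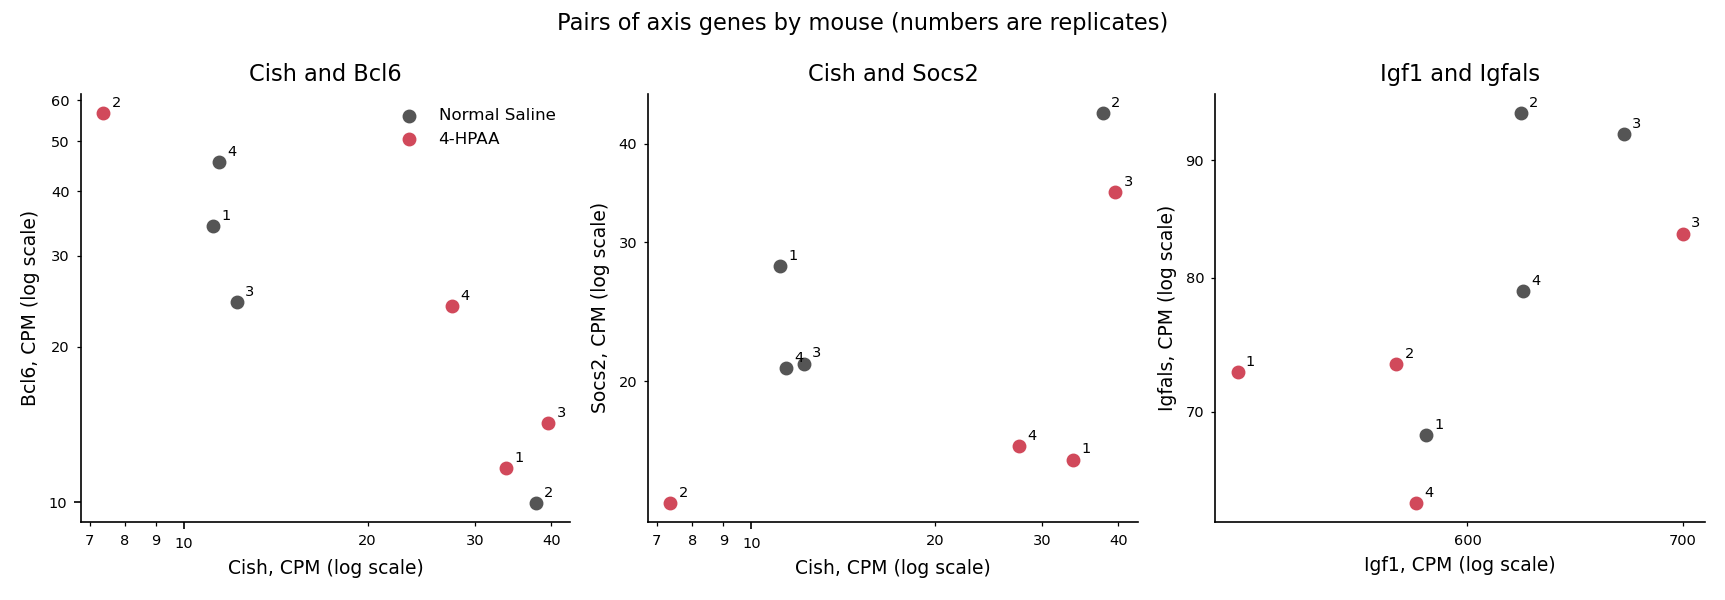
Pairs of axis genes, both axes in TMM-scaled CPM on a log scale, each point 1 mouse with its replicate number. Bcl6 is high where Cish is low in both groups (r = -0.92), Socs2 does not follow Cish in 4-HPAA replicates 1 and 4, and Igfals is loosely ordered with Igf1.

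Among the 12883 genes tested, the 3 with the closest pattern to Cish over the 8 mice were Yju2 (r = 0.98), Btbd19 (0.93) and Plk3 (0.92), and 10 genes had an r over 0.9. Those closest to Igf1 were Dlg4 (0.97), Rbm12b2 (0.96) and Reg2 (0.94), and 12 genes had an r over 0.9. These are descriptions over 8 mice. Among 12883 genes some unrelated ones can reach such an r over so few mice, and the counts were not tested against that. Except Plk3, at 35.1 to 132 CPM, the genes named were at levels under 7 CPM, where counting error is larger.

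The transcripts were examined because each gene level is a sum over forms that differ in what they encode. Of the 25533 transcripts tested, 0, or 0%, passed at an adjusted p of 0.05 (quasi-likelihood test of edgeR), and 979, or 3.83%, had an unadjusted p under 0.05. Of the 29 transcripts of the axis that were tested, 0 passed and 3 had an unadjusted p under 0.05. In shares of a gene's estimated counts and in ratios between genes, 29 measures were tested, with a smallest possible p of 0.0286 over the 70 splits of the mice. None had an adjusted p under 0.05 (smallest 0.414), and 2 reached the smallest p.

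Ghr was read as a long form, which encodes the whole receptor, and a short form that ends before the membrane and encodes the binding protein of the blood. Ghr-201, of 650 residues, held between 79.0% and 83.9% of the gene's counts. Ghr-203, of 297 residues and ending in the bases shown above, held 16.3%, 15.3%, 15.8% and 13.1% with Normal Saline and 16.8%, 17.5%, 17.7% and 16.6% with 4-HPAA. Every 4-HPAA mouse lay above every Normal Saline mouse. The mean share was 15.1 ± 1.44% and 17.1 ± 0.501% (SD, n = 4 per group), a difference of 1.99 percentage points (exact permutation test, two-sided, p = 0.0286, adjusted p = 0.414). Ghr-202, also of 297 residues, was at 98.7, 37.2, 75.1 and 79.8 estimated counts with Normal Saline and at 24.9, 29.7, 26.4 and 17.7 with 4-HPAA. It too was separated, in the other direction (log2 fold change -1.51, SE 0.30, adjusted p = 1.00, unadjusted p = 0.000599 in edgeR's quasi-likelihood test), and it held under 1% of the gene in every mouse. The share of Ghr-202 was 0.746% in Normal Saline replicate 1, against 0.171% and 0.145% in 4-HPAA replicates 1 and 4. Counted together, the 2 short forms held more in Normal Saline replicate 1 than in those 4-HPAA mice, so the groups overlapped. Both forms have 894 coding bases, but their sequences were not compared, so the division of reads between them is uncertain.

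Igf1 was read mostly as Igf1-202, which begins with the longer coding start shown above and held between 75.05% and 80.3% of the gene. Igf1-205 and Igf1-206, which begin with the short start, held between 6.69% and 9.66% and between 6.60% and 10.01%. The shares of Igf1-202 were 78.5 ± 2.29% in Normal Saline and 77.1 ± 2.14% in 4-HPAA mice (SD over 4 mice each, exact permutation test, p = 0.486, adjusted p = 0.875). All 8 transcripts of Igf1 were tested and 0 passed.

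Some of the counts of Cish, Igfals and Cux2 belonged to transcripts annotated as not coding. Cish-202, a processed transcript, held 35.6%, 23.8%, 29.7% and 62.0% of Cish with Normal Saline and 64.8%, 43.3%, 28.1% and 48.2% with 4-HPAA. Its share was highest in 1 mouse of each group. The coding transcript Cish-201 was at 205, 813, 251 and 109 estimated counts with Normal Saline and at 329, 117, 865 and 397 with 4-HPAA, so Normal Saline replicate 2 and 4-HPAA replicate 3 led as they did in the gene sum. Igfals-204, also noncoding, held 51.9 ± 3.02% of Igfals in Normal Saline and 47.8 ± 6.29% in 4-HPAA mice (SD over 4 mice each). Its level had a log2 fold change of -0.30 (SE 0.11, adjusted p = 1.00, unadjusted p = 0.0219 in edgeR's quasi-likelihood test), against -0.05 (SE 0.18) for the coding Igfals-201. The coding Cux2-202 was at 111, 19.9, 18.8 and 78.8 estimated counts with Normal Saline and at 18.8, 18.3, 20.9 and 15.0 with 4-HPAA. Normal Saline replicates 1 and 4 stood apart in this transcript as in the gene (log2 fold change -1.61, SE 0.55, adjusted p = 1.00, unadjusted p = 0.0163 in edgeR's quasi-likelihood test). With coding transcripts alone, an alternative chosen after seeing the data, the log2 fold changes of the genes were 0.27 for Cish (SE 0.64), -0.07 for Igfals (SE 0.18) and -1.90 for Cux2 (SE 0.79), and 0 axis genes passed (edgeR's quasi-likelihood test).

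Estimated shares of the Jak2 and Stat5a transcripts differed widely from mouse to mouse among forms that encode the same or nearly the same residues. Among such forms kallisto may divide reads, and the part of this in the shares was not tested. Jak2-201 and Jak2-202 encode the same 1132 residues, and the share of Jak2-201 ranged from 0% to 63.9%. Stat5a-201 ranged from 7.46% to 57.4% of Stat5a. Stat5a-203, of 797 residues where the main forms have 793, held 12.2 ± 4.59% in Normal Saline and 3.06 ± 3.55% in 4-HPAA mice (SD over 4 mice each, exact permutation test, two-sided, p = 0.0286, adjusted p = 0.414), on at most 59.4 estimated counts, and was listed at 0 in 4-HPAA replicates 3 and 4. Stat5b-201 and Stat5b-202 kept to between 51.4% and 63.8% and between 35.9% and 48.3%. Socs2-213 and Socs2-214 together had almost no counts in 4-HPAA replicate 3, while Socs2-213 held between 8.34% and 16.8% in the other mice.

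**Figure D4:**
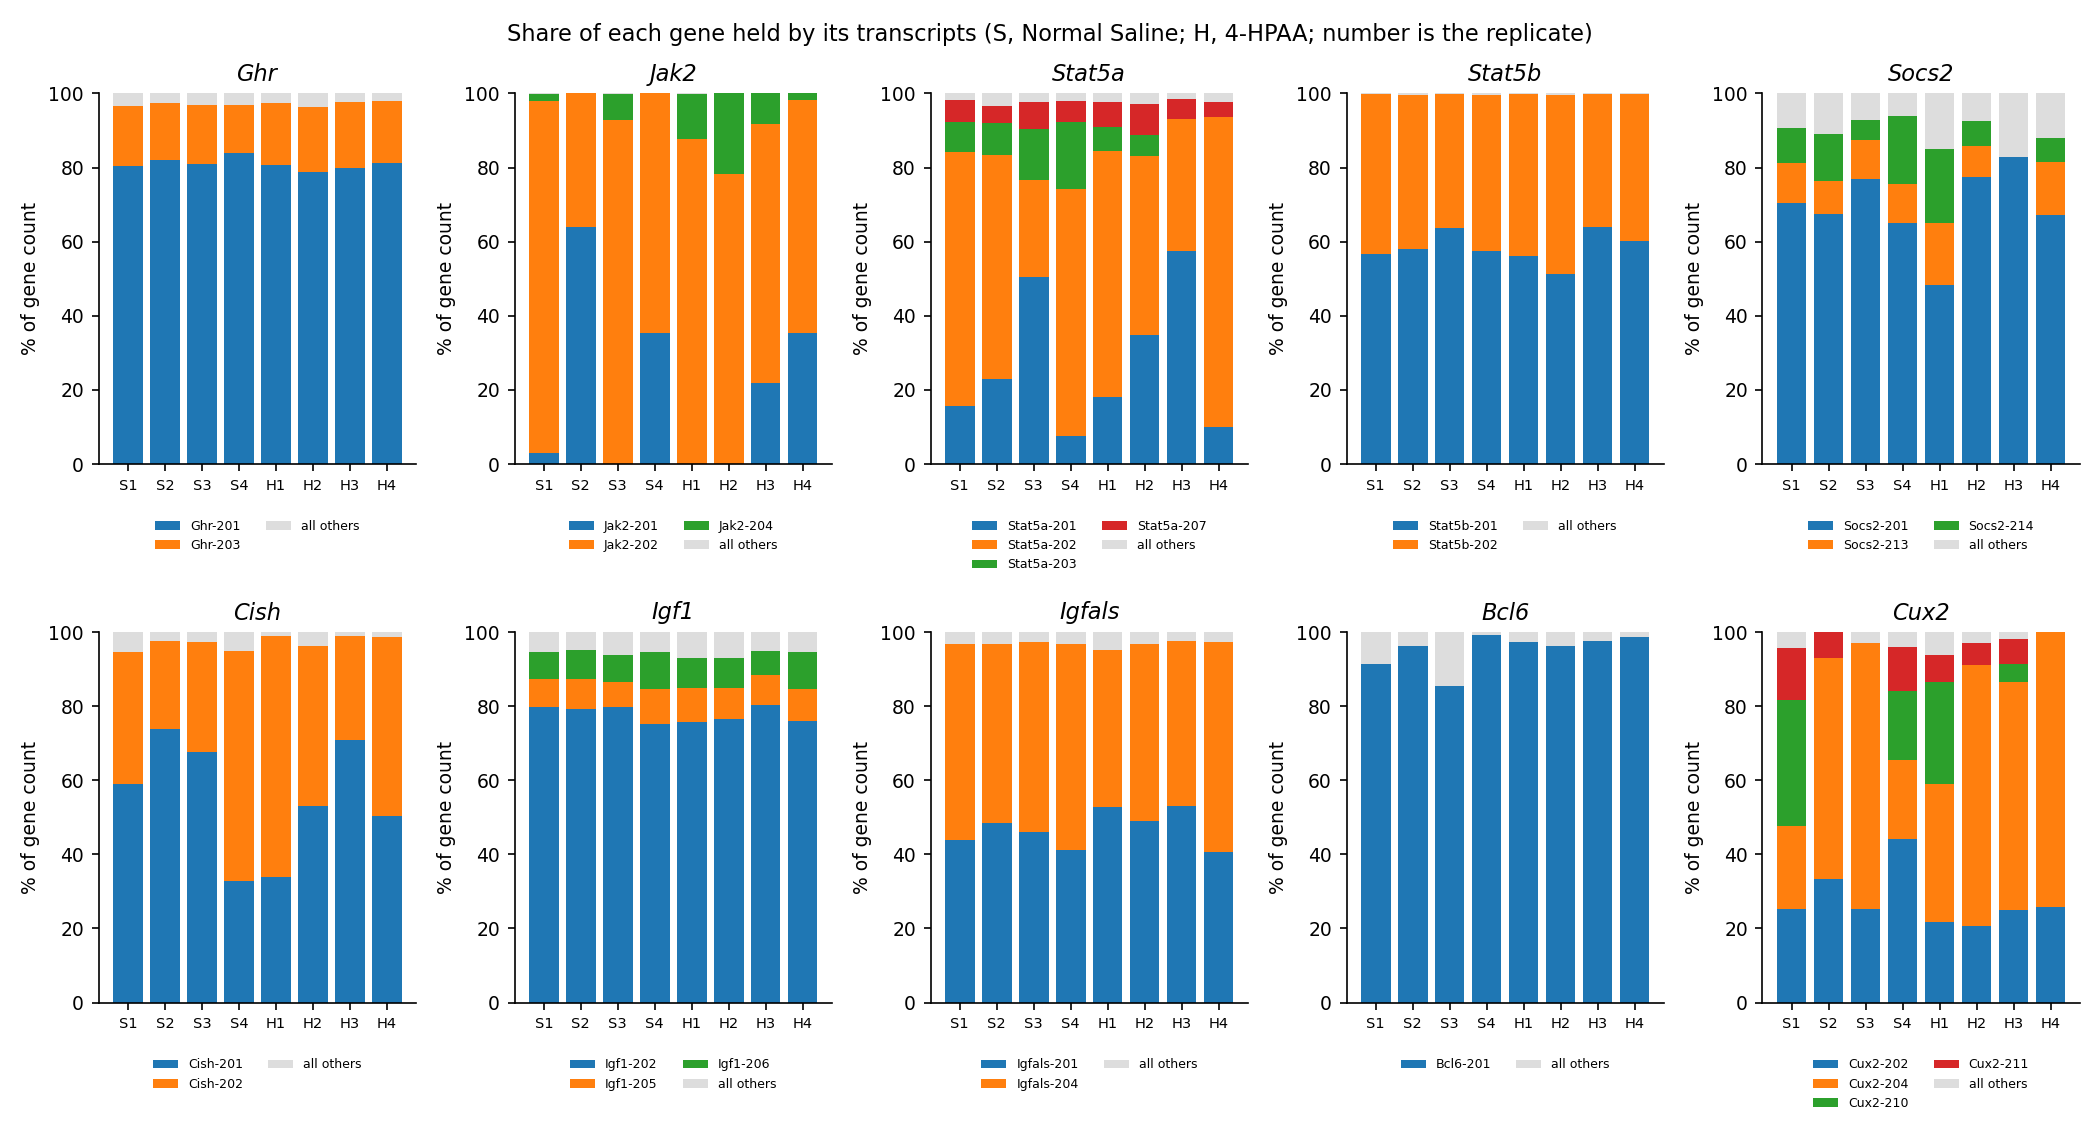
Share of each gene's estimated counts held by each transcript with a mean share of at least 5%, from 0 to 100%, in each of the 8 mice. Grey is the sum of all other transcripts. Ghr-201, Igf1-202 and Stat5b-201 hold the largest share in every mouse, the larger share of Igfals falls to Igfals-201 in some mice and to Igfals-204 in others, and the share of Jak2-201 runs from 0% to 63.9%.

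Other genes of the pathway were taken from lists made by hand with earlier results of these data known. Counts over these lists are therefore not independent of the data, and their distance from the share over all genes was not tested. Of 34 other genes of JAK-STAT signalling 32 were tested, 13 were higher and 19 lower with 4-HPAA, and 0 passed (edgeR's quasi-likelihood test). The median log2 fold change was -0.02, against 0.00 over all genes tested. Prlr, the prolactin receptor and a relative of Ghr, was at 129, 108, 112 and 115 CPM with Normal Saline and at 85.1, 103, 97.2 and 71.9 CPM with 4-HPAA. All 4-HPAA mice lay below all Normal Saline mice (log2 fold change -0.38, SE 0.11, adjusted p = 1.00, unadjusted p = 0.00839 in edgeR's quasi-likelihood test). Of the 90 other genes tested in the 5 lists of the axis, 6 had an unadjusted p under 0.05, where 1.75% of all genes tested did, and 2 were separated in this way, where 1.2% of all genes were. These were Prlr and the fatty acid transporter Cd36. The extremes of the JAK-STAT list besides Prlr were the erythropoietin receptor Epor at -0.49 (SE 0.39), the insulin receptor substrate Irs2 at 0.20 (SE 0.14) and the inhibitor Socs3 at 0.37 (SE 0.31). Irs2 was at 0.037 without 4-HPAA replicate 3, and Socs3 at 0.095 without 4-HPAA replicate 1.

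In the IGF system 10 of 15 genes were tested, 7 were higher and 3 lower with 4-HPAA, and 0 passed (median log2 fold change 0.05). Igfbp2, an IGF binding protein of liver, was at 441, 434, 341 and 499.5 CPM with Normal Saline and at 676, 435, 519 and 779 CPM with 4-HPAA. The groups overlapped through 4-HPAA replicate 2 (log2 fold change 0.49, SE 0.18, adjusted p = 1.00, unadjusted p = 0.0241 in edgeR's quasi-likelihood test). Igfbp1, a binding protein that rises in fasting, was at 378 CPM in Normal Saline replicate 1 and 282 CPM in 4-HPAA replicate 4, against 88.5 to 169.9 CPM in the other mice (log2 fold change -0.22, SE 0.45). Igfbp3, whose protein carries IGF1 with the product of Igfals, was also highest in these 2 mice, at 21.4 and 20.04 CPM against 10.8 to 12.3 CPM. Igfbp7 was at 0.33 (SE 0.15), Igfbp5 at -0.07 (SE 0.29), Igfbp4 at 0.05 (SE 0.10) and the receptor Igf1r, at 1.72 to 4.42 CPM, at 0.05 (SE 0.29) on the log2 fold change scale.

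Among 12 genes that answer to growth hormone in liver 11 were tested, 6 were higher and 5 lower, and 0 passed (median log2 fold change 0.05). Cd36 was at 43.8, 47.6, 47.3 and 43.2 CPM with Normal Saline and at 37.7, 41.0, 32.8 and 35.8 CPM with 4-HPAA, a log2 fold change of -0.30 (SE 0.08, adjusted p = 1.00, unadjusted p = 0.00435 in edgeR's quasi-likelihood test). Gadd45g was at -0.53 (SE 0.37), Fgf21 at 0.52 (SE 0.77) and Myc at 0.53 (SE 0.44). Onecut1, a liver transcription factor, ranged from 12.9 to 137 CPM over the 8 mice (log2 fold change -0.15, SE 0.75), and the receptor Egfr from 583 to 1271 CPM (-0.20, SE 0.26).

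Genes whose liver level differs between the sexes were read because their pattern depends on how growth hormone is secreted. The Y-linked genes Ddx3y (72.1 to 89.5 CPM), Kdm5d (16.3 to 24.6), Eif2s3y (43.7 to 52.0) and Uty (14.2 to 16.9) were expressed in all 8 mice. Of the genes typical of female liver, Cyp2b13 had at most 1 estimated count, A1bg at most 4 and Cyp3a41a at most 10 in any mouse. Of the 25 genes typical of male liver 24 were tested, 21 were higher and 3 lower with 4-HPAA, and 0 passed (median log2 fold change 0.13). Of the 26 genes typical of female liver 13 were tested, 0 were higher and 13 lower, and 0 passed (median -0.33). With each library left out the medians ran from -0.07 to 0.31 and from -0.56 to -0.02. They were -0.07 and -0.02 without Normal Saline replicate 1, and 0.05 and -0.13 without Normal Saline replicate 4. Many genes of both lists belong to families of close paralogs, among which kallisto may divide reads, and are not independent of each other.

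Normal Saline replicates 1 and 4, which had the most Cux2, stood out in these genes too. In Normal Saline replicate 1 Cyp7b1, typical of male liver, was 67.2 CPM, against 128 to 237 CPM in all other mice. Hsd3b5, also typical of male liver, was lowest in Normal Saline replicates 1 and 4, at 51.2 and 51.0 CPM against 93.4 to 144 CPM, and these were the 2 mice with the most Cux2. Lepr, the leptin receptor, was at 111, 62.7 and 97.9 CPM in Normal Saline replicates 1 and 4 and 4-HPAA replicate 4, against 12.2 to 30.8 CPM in the other mice. The urinary protein gene Mup7 was lowest in the same 3 mice, at 1219, 1931 and 1580.5 CPM against 12599 to 18284 CPM. Cux2 was not high in 4-HPAA replicate 4, at 2.03 CPM the lowest of all mice.

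**Figure D5:**
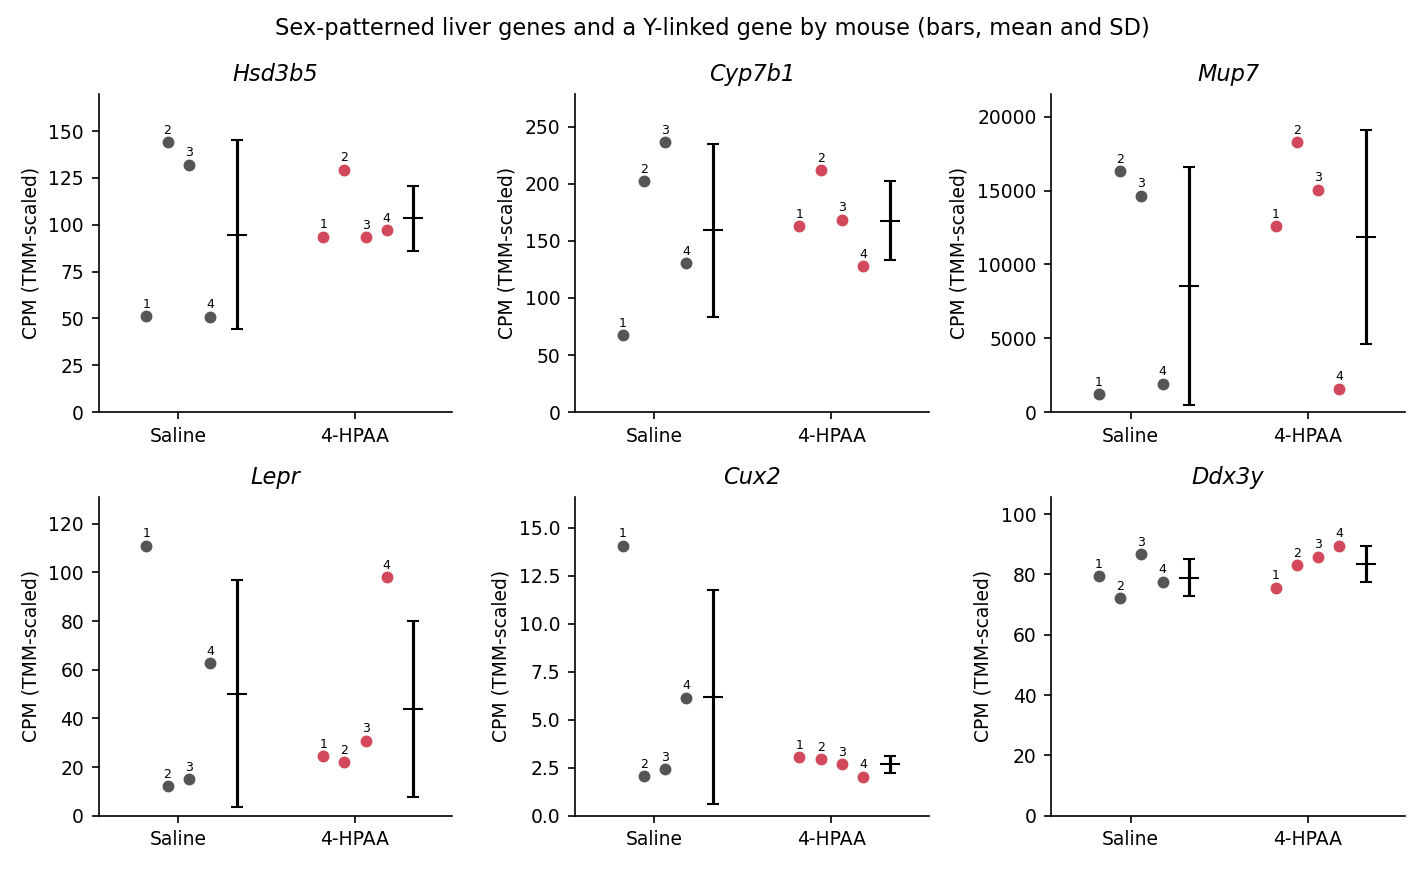
Levels of Hsd3b5, Cyp7b1 and Mup7, typical of male liver, Lepr and Cux2, and the Y-linked Ddx3y, in TMM-scaled CPM from 0. Each point is 1 mouse with its replicate number and the bars give mean and SD (n = 4). Normal Saline replicate 1 has the most Lepr and Cux2 and the least Cyp7b1 and Mup7, while Ddx3y is alike in all mice.

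The remaining genes that mark the ends of these lists were given by their log2 fold changes. In male-typical genes these were Serpina1e at -0.17 (SE 0.36), Cyp4a12b at -0.11 (SE 0.40), Mup12 at 0.42 (SE 0.90) and Mup7 at 0.48 (SE 0.87). Mup12 was at 0.063 without Normal Saline replicate 4, and Mup7 at 0.11 without Normal Saline replicate 1. In female-typical genes they were Cyp2a4 at -3.01 (SE 1.69), Slc22a26 at -1.25 (SE 0.47), Trim24 at -0.09 (SE 0.14) and Tox at -0.02 (SE 0.16). Cyp2a4 was at 275 CPM in Normal Saline replicate 4 and at most 32.3 CPM in every other mouse, and without that mouse its log2 fold change was -0.07. Cyp2d9 (585 to 1286 CPM), Slco1a1 (308 to 554), Cyp4a12a (66.1 to 252), Elovl3 (17.8 to 60.9) and Mup20 (3625 to 7366) overlapped between the groups, and Cyp2b9 stayed under 7 CPM.

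Markers of the cells of the liver were set beside these values. The 10 hepatocyte markers summed to between 118907 and 157252 CPM, and 0 of the 10 were missing. The 14 Kupffer cell and leukocyte markers summed to between 89.5 and 268 CPM with Normal Saline and between 80.8 and 237 CPM with 4-HPAA. The endothelial, stellate and bile duct markers summed to at most 235, 202.9 and 45.6 CPM. The 5 red blood cell genes summed to 2560 CPM in Normal Saline replicate 2, which had the most Socs2, to 734 CPM in 4-HPAA replicate 4, and to 152 to 376 CPM in the other mice. Of the state lists, 14 acute phase genes summed to between 5825 and 7173 CPM with Normal Saline and between 5341 and 6388 CPM with 4-HPAA, 10 genes of fasting to between 8179 and 10669 CPM, and 8 genes of the glucocorticoid response to between 2798 and 5093 CPM over all mice. Normal Saline replicates 1 and 4 and 4-HPAA replicate 4 had the most Lepr and the least Mup7. Their fasting genes summed to 10669, 9321 and 9621 CPM, against 8179 to 9136 CPM in the other mice. Their glucocorticoid genes summed to 5093, 4121 and 4665 CPM, against 4174 CPM in 4-HPAA replicate 1 and 2798 to 2998 CPM in the rest. Their Kupffer cell and leukocyte markers summed to 108, 89.5 and 80.8 CPM, against 129 to 268 CPM. The part of any of these in the levels of the axis and of the other genes named was not tested.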

How the data were processed

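Liver RNA of 4 Normal Saline and 4 4-HPAA mice was sequenced as paired-end libraries from poly(A) RNA by a directional kit. The authors ran FastQC 0.11.9 and kallisto and deposited estimated counts per transcript and mouse, not normalized and not pooled (build GRCm38.p6 per the labels; 9.36% of values above 0 are whole). By the study's methods kallisto was run with standard parameters, which set no strand option.

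Per gene, counts were added up after GENCODE M21 (116728 of 119414 transcripts matched; the rest held 0.703% to 1.06% of a library) and rounded. The test, for genes and transcripts that reached 10 counts in each library, was that of edgeR 4.0.16 (quasi-likelihood, TMM) in R 4.3.3, with Benjamini-Hochberg adjustment over all of them and a threshold of 0.05. SE is the log2 fold change over the square root of F. CPM are TMM-scaled and TPM were computed from the counts per annotated length. Shares, ratios and pairs were tested by exact permutation over mice. The tests were tested on simulated data. Depth was near even, so precision depends on how far the 4 mice of a group differ. That the mice are separate animals is taken from the sample labels and methods, and p-values measure the spread between them.

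The members, lists and the rule for named genes were chosen with earlier results of these data known. Named were the 10 members, for each list the 2 highest and 2 lowest log2 fold changes tested, a fixed set of receptors, binding proteins and sex-typical genes, and for Igf1 and Cish the 3 most alike genes. Jak3 was left to the counts. Of the fixed set, 1 gene is not reported here. Alternatives tried were limma-voom (limma 3.58.1), DESeq2 1.42.0, RLE, total counts only, other filters, each library left out, the replicate number as a block and, chosen after seeing the data, coding transcripts only.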

Additional observations from a re-analysis of the deposited data

Results flagged for a closer look

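A mouse lay far from the rest of its group of 4 in 15 groups of values, 3 of them in axis genes. For normally distributed values of genes named without regard to their levels, chance gives about 1 in 20 groups examined, or 5.05 here. The count flagged cannot be tested against this, because some genes were named for extreme log2 fold changes, which 1 outlying mouse can produce. Whether the CPM values are normally distributed was not tested. The measure is the gap to the nearest mouse as a share of the group's range, and those past Dixon's critical value at the 95% level are given. In axis genes, these were Jak2 in Normal Saline replicate 4 (0.895, at 12.4 against 16.5 to 17.0 CPM), Socs2 in 4-HPAA replicate 3 (0.877, at 34.7 against 14.04 to 16.6 CPM) and Cish in Normal Saline replicate 2 (0.961, at 37.7 against 11.2 to 12.2 CPM). In Normal Saline replicate 1 they were Cyp4a12b (0.934, low), Igfbp3 (0.863, high) and Tox (0.836, high). In Normal Saline replicate 2 it was Epor (0.833, high), and in replicate 4 Cyp2a4 (0.899, high). In 4-HPAA replicate 2 it was Hsd3b5 (0.895, high) and in replicate 3 Onecut1 (0.952, high). In 4-HPAA replicate 4 they were Cyp2a4 (0.912, high), Cyp2d9 (0.838, low), Igfbp3 (0.909, high), Lepr (0.883, high) and Serpina1e (0.890, high).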

How the results depend on the processing

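The count of 0 genes called was 2 with DESeq2 and ran from 0 to 1 with each library left out, the 1 without 4-HPAA replicate 1. No axis gene, axis transcript or gene of the 5 lists was called under any alternative run. The median of the growth hormone response list, 0.05, was -0.12 with coding transcripts only, -0.11 without Normal Saline replicate 4, -0.12 without 4-HPAA replicate 4 and -0.04 with either other count filter. That of the IGF system, 0.05, was -0.06 with either other count filter, and it ran from -0.00044 to 0.16 with each library left out. That of JAK-STAT signalling ran from -0.044 to 0.028 with each library left out. The median of female-typical genes was -0.57 with at least 10 counts summed and -0.49 with no filter, as more genes were then tested. Of the 10 axis genes 6 kept their direction in all 16 alternatives. With each library left out, the other 4 ran from -0.018 to 0.12 (Ghr), from -0.10 to 0.13 (Jak2), from -0.0043 to 0.16 (Stat5b) and from -0.78 to 0.22 (Bcl6). Genes of the lists that turned ran from -0.62 to 0.34 (Igfbp1), -0.17 to 0.047 (Trim24), -0.10 to 0.090 (Tox), -0.68 to 0.039 (Epor), -0.30 to 0.14 (Igfbp5), -0.56 to 0.050 (Serpina1e), -0.42 to 0.035 (Cyp4a12b) and -0.73 to 1.08 (Fgf21). Under limma-voom Fgf21 was -0.0099 and Cyp4a12b 0.071, and the latter was 0.044 with the replicate block. The cause was not tested. Mice share replicate numbers, but the deviations of same-numbered mice from their group means correlated at 0.0398, 0.168, 0.268 and 0.480, against a mean of -0.0783 for mice of different numbers. The numbers were taken to pair the mice only if every correlation was over 0.1, which 1 of the 4 was not. Of the 8 mice 4 correlated best with the mouse of their own number. Fitted with a replicate block, 0 genes, 0 axis genes and 0 axis transcripts passed. Transcript shares gave 0 calls with each library left out, and the relation of Cish and Bcl6 kept its call with total counts only and with deviations from the group means.

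Cux2 had the fewest counts of the axis genes, 58 to 439 per library, and several axis transcripts and female-typical genes had fewer. Counting error is relatively largest at such counts, and its part in the spread between mice was not tested.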
